A study of Rattus norvegicus with 4 samples.

Results

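The antioxidant and NRF2 pathway genes described here are 41 genes of the glutathione, thioredoxin, peroxiredoxin and superoxide dismutase systems, of NADPH supply, and of NRF2 with its inhibitor. They were taken by gene symbol from the 31038 rows of the count tables, and each of the 41 symbols matched exactly 1 row. Ribosome-protected fragments (pieces of messenger RNA shielded by a ribosome from digestion) were counted per gene in 4 libraries of cultured rat (Rattus norvegicus) myocardial cells. The siNT group received a control siRNA and the si3m group an siRNA against eIF3m, a subunit of the translation initiation complex eIF3, with 2 libraries in each. All 4 libraries thus came from cells given an siRNA, and neither strain nor age nor time after transfection was given. The label NRVM usually denotes neonatal rat ventricular myocytes, whereas the growth protocol gives embryonic rat heart muscle as the source. The series title sets eIF3m in nitrative damage after ischemia and reperfusion, a setting in which enzymes that remove reactive oxygen are of interest, but no library came from cells deprived of oxygen as far as the labels state.

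NRF2, encoded by Nfe2l2, is a transcription factor that is kept low by KEAP1, an adaptor that hands it to a ubiquitin ligase. When electrophiles or oxidants modify KEAP1, NRF2 accumulates, pairs with a small MAF protein and binds antioxidant response elements in front of genes for glutathione synthesis, quinone reduction, thioredoxin reduction and NADPH supply. Glutathione and thioredoxin are the main carriers of reducing power in the cell: peroxidases and peroxiredoxins spend it on hydrogen peroxide and lipid peroxides, and NADPH from the pentose phosphate pathway and malic enzyme restores it. The heart, rich in mitochondria, depends on these systems when blood flow returns after ischemia.

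To show the sequence by which NRF2 recognises such genes, the letters TGACNNNGC, the core of the antioxidant response element, were searched on both strands (GCNNNGTCA on the opposite one) in RefSeq windows of GRCr8 that run from 250 bases before to 50 after the annotated start. Of the 41 members, 35 had such a window, and 9 of these 35 held the letters in at least 1 window. Counted by window, 9 of 41 member windows did (22.0%), against 12.1% of all 33469 windows. Below are the 3 matches of members whose footprints changed, Prdx1, Prdx4 and Gstp1, and the matches of 3 members of textbook NRF2 control that did not pass the test, Gclm, Me1 and Txnrd1. Each is written in the direction of its gene with the matching letters in capitals.
Prdx1: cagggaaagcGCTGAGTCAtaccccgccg
Prdx4: tttcgtgctcGCTTGGTCAtggaaacgtg
Gstp1: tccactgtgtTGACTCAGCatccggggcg
Gclm: tgcggtttctGCTTAGTCAttgtcttcca
Me1: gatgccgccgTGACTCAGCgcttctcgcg
Txnrd1: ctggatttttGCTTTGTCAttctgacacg
These stretches lie at chr5:135383761-135383789 (plus strand) for Prdx1, chrX:43878742-43878770 (plus) for Prdx4, chr1:210769748-210769776 (minus) for Gstp1, chr2:213031953-213031981 (plus) for Gclm, chr8:96540393-96540421 (minus) for Me1 and chr7:22755964-22755992 (minus) for Txnrd1, all in GRCr8. The match began 135 bases before the start in Prdx1, 61 in Gstp1, 172 in Gclm, 167 in Me1 and 78 in Txnrd1, and 19 bases after it in Prdx4. Nfe2l2, Prdx5 and Sod2 held the other 3 matches. Among the 9 members with the letters, 2 were higher, 1 was lower and 6 did not pass the test. A match is a description of letters and not a bound site.

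The control libraries held 3924434 and 3835750 counts in total and the si3m libraries 8687598 and 6726969, so depth differed with group. Eif3m itself had 2136 and 1774 deposited counts in siNT and 1168 and 1232 in si3m, a 3.01-fold fall after scaling (log2 -1.59, SE 0.11, edgeR adjusted p = 3.41e-08). Whether the 2 libraries of a group came from different cultures is not stated. The p-values therefore cover the spread between these libraries alone, and that spread may be technical. Markers of cardiomyocytes were scarce: 9 of 12 had at most 6 counts in each siNT library, Tnni3 and Nppa had 0 in every library, and the 12 summed to 74.2 and 68.6 CPM in siNT and 50.2 and 59.4 in si3m (CPM, counts relative to a common library size after TMM scaling). The 3 cardiomyocyte markers that could be tested went both ways, with Tnnt2 higher (log2 1.25, edgeR adjusted p = 0.00417) and Pln (log2 -1.56, adjusted p = 0.00149) and Ttn (log2 -0.64, adjusted p = 0.0103) lower. Ttn alone held 39.3 and 43.7 CPM of the cardiomyocyte sums in siNT and 26.8 and 26.3 in si3m. Fibroblast markers summed to 7424 and 7345 CPM in siNT and 12560 and 12412 in si3m, and all 7 tested of the 10 were higher, while Tcf21 had 0 counts throughout and Lum and Dcn had 0 in siNT. Col1a1 alone held 3852 and 3747 CPM of the siNT sums and 6817 and 6690 of the si3m sums. Pdgfra had 4 and 6 counts in siNT and 18 and 8 in si3m and was not tested. The 4 smooth muscle markers summed to 3141 and 3107 CPM in siNT and 3616 and 3683 in si3m. Of these Acta2 was higher (log2 0.35), Tagln was lower (log2 -0.23, edgeR adjusted p = 0.00259), and Cnn1 (log2 -0.57) and Myh11 (log2 0.77) did not pass. The 5 macrophage markers summed to 9.46 and 11.7 CPM in siNT and 1.41 and 0.928 in si3m, with Cd163 at 0 throughout. Adgre1 alone held 5.97 and 8.64 CPM of the siNT sums, on 24 and 34 counts in siNT against 4 and 0 in si3m. It was the only 1 of the 5 with enough counts to be tested. The endothelial markers summed to between 2.99 and 5.59 CPM in each library, with Cdh5 at 0 throughout. No erythroid marker of 5 had more than 4 counts. The summed cardiomyocyte, fibroblast, smooth muscle and macrophage markers differed between the groups without overlap, while the endothelial and erythroid sums overlapped. The part of these markers in the results below was not tested. In bulk samples such as these, a different number of cells of a type cannot be told apart from a different amount of RNA per cell.

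The antioxidant genes went in both directions. A footprint count reflects the amount of a messenger RNA as well as how heavily ribosomes load it, and the 2 cannot be told apart here, since RNA levels were not analysed here. The filter on low counts left 40 of the 41 members for the test, of which 8 were higher and 5 lower in si3m at an edgeR adjusted p under 0.05 and 27 did not pass. Over all 12672 tested genes, 14.0% were higher and 13.9% lower by the same rule. With total count scaling, all genes split into 1428 higher and 2217 lower in place of 1771 and 1757. The members' median log2 fold change was 0.16, against 0.02 over all tested genes. Those that rose were Txn1, Prdx1, Prdx4, Gsto1, Glrx, Txnip, Gpx4 and Gpx1, and those that fell were Hmox1, Glrx2, Cat, Taldo1 and Gstp1.

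Footprints of all members together took 4606 and 4672 CPM in siNT and 5239 and 5275 CPM in si3m. The groups did not overlap, and si3m was 1.13-fold higher (log2 0.18, or 0.10 with total count scaling). Without Prdx1, Txn1 and Prdx4, chosen after their values were seen as the 3 members that gained most CPM, the sums were 4039 and 4079 CPM in siNT and 4073 and 4075 in si3m and overlapped. By role, peroxiredoxins with sulfiredoxin summed to 1073 and 1107 CPM in siNT against 1522 and 1569 in si3m, and the thioredoxin group to 928 and 934 against 1233 and 1261. Superoxide dismutases with catalase summed to 380 and 415 CPM in siNT and 341 and 336 in si3m. Values of the 2 groups were separate and higher in si3m for 21 of the 40 tested members and separate and lower for 9, where 32.6% and 31.3% of all tested genes were so.

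**Figure D1:**
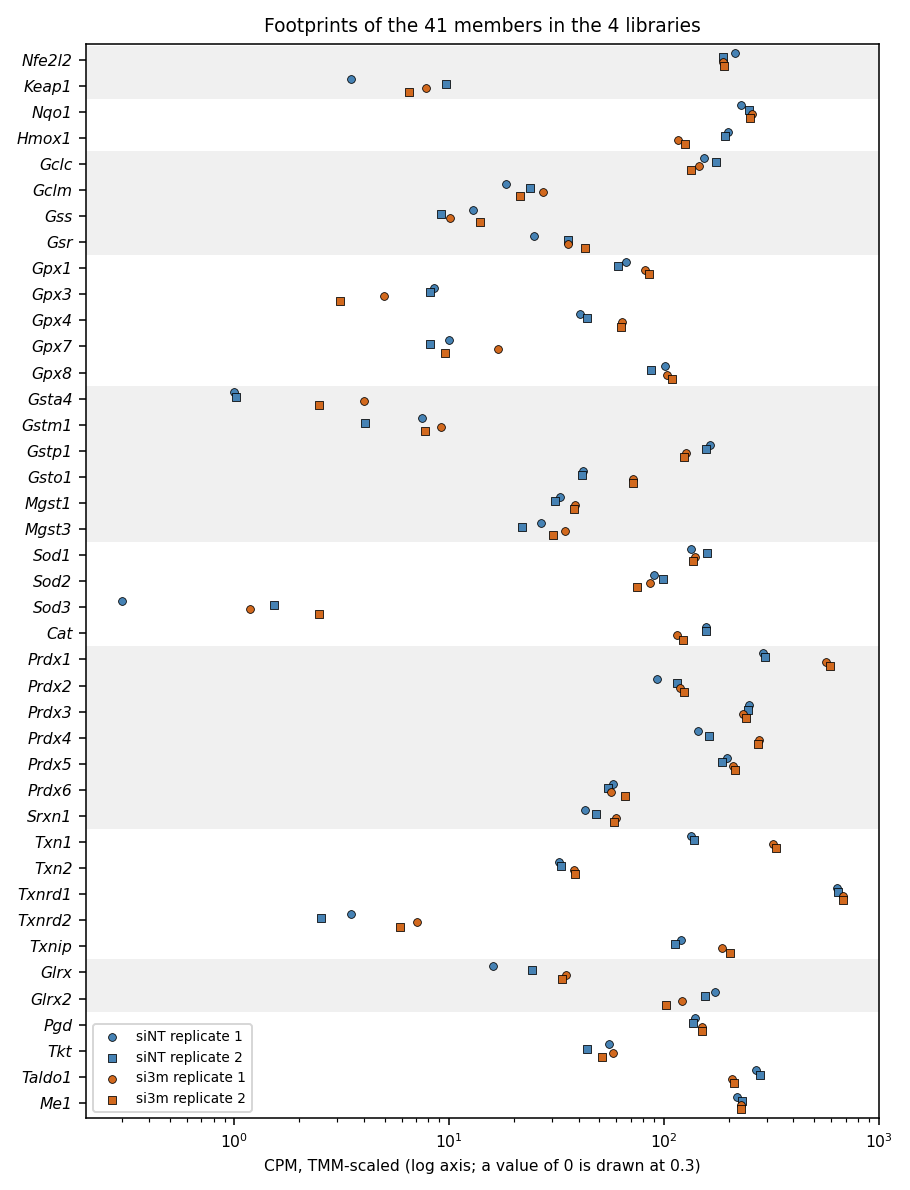
Footprint level (CPM after TMM scaling, log axis) of each of the 41 members in the 4 libraries; siNT is blue, si3m orange, circles are replicate 1 and squares replicate 2, and shaded bands separate the roles. Txn1, Prdx1 and Prdx4 show orange points well to the right of blue ones, Hmox1, Cat and Taldo1 to the left, and Sod3, Gsta4 and Txnrd2 sit at a few CPM.

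Thioredoxin showed the largest rise among the tested members that passed. Txn1, the cytosolic thioredoxin that reduces peroxiredoxins and many other proteins, had 537 and 542 counts in siNT and 2726 and 2152 in si3m. Both si3m libraries lay far above both siNT libraries, at 327 ± 8.39 against 136 ± 2.85 CPM (SD, n = 2 each), a 2.41-fold rise (log2 1.27, SE 0.062, edgeR adjusted p = 4.55e-10). Txnip, the arrestin-family protein that binds thioredoxin and blocks its active site, had 482 and 442 counts in siNT and 1584 and 1310 in si3m. It rose 1.67-fold, from 116 ± 5.43 to 195 ± 11.4 CPM (SD, n = 2 per group; log2 fold change 0.74, SE 0.079, edgeR adjusted p = 4.02e-06), with no overlap of the groups.

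Thioredoxin reductases did not pass the test, nor did mitochondrial thioredoxin. Txnrd1, the cytosolic selenoenzyme that recharges thioredoxin with electrons from NADPH, had 2566 and 2552 counts in siNT and 5773 and 4403 in si3m, or 644 ± 6.83 and 680 ± 0.883 CPM (SD, n = 2 each). Its log2 value of 0.08 had a 95% interval from -0.02 to 0.18 and became -0.00025 with total count scaling (edgeR adjusted p = 0.226, or 0.998 with that scaling). The mitochondrial pair was sparser: Txn2 had 130 counts in each siNT library and 324 and 250 in si3m (log2 0.23, 95% interval -0.12 to 0.58). In GRCr8 Txnrd1 overlaps Eid3 (log2 -0.47, edgeR adjusted p = 0.0582). Txnrd2 had 14 and 10 counts in siNT and 60 and 38 in si3m, and its log2 value of 1.10 had a 95% interval from 0.13 to 2.07 (edgeR adjusted p = 0.0855). Within a library, where no scaling enters, the ratio of Txn1 to Txnrd1 counts was 0.209 and 0.212 in siNT and 0.472 and 0.489 in si3m, and that of Txn1 to Txn2 was 4.13 and 4.17 against 8.41 and 8.61. Neither ratio overlapped between groups. These pairs, and those below, were chosen after their values were seen. A ratio also reflects the lengths of both genes, so its change between libraries can be read and its size cannot.

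Peroxiredoxins reduce hydrogen peroxide and are mostly recharged by thioredoxin, and 2 of the 6, Prdx1 and Prdx4, rose. Prdx1, the main cytosolic member in many cells, had 1162 and 1156 counts in siNT and 4831 and 3834 in si3m. Its level rose from 291 ± 3.15 to 581 ± 17.1 CPM (SD, n = 2 per group; 1.99-fold, log2 0.99, SE 0.055, edgeR adjusted p = 1.83e-09), and the groups were far apart. Prdx4, which resides in the endoplasmic reticulum and couples peroxide removal to disulfide formation, had 580 and 636 counts in siNT and 2342 and 1770 in si3m. It rose 1.80-fold, from 153 ± 12.2 to 275 ± 1.42 CPM (SD, n = 2 per group; log2 fold change 0.85, SE 0.068, edgeR adjusted p = 1.77e-07).

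The Prdx1 row is uncertain because of a near copy. The count tables hold a second row, Prdx1l1, named in GRCr8 as a Prdx1-like gene, with 1008 and 940 counts in siNT and 4343 and 3308 in si3m. This row rose 2.09-fold (log2 1.06, SE 0.056, edgeR adjusted p = 1.13e-09). Per library, Prdx1 had 1.15 and 1.23 times the counts of Prdx1l1 in siNT and 1.11 and 1.16 times in si3m, ratios that overlapped. How the counting treated reads with several matches is not given in the sources used here, so reads of the 2 rows may be shared or counted in both. RefSeq names 7 more copies of Prdx1 that had no row. Leaving Prdx1 aside, 7 of 39 tested members were higher and 5 lower.

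The remaining peroxiredoxins did not pass the test. Prdx3, the mitochondrial relative of Prdx1, had 1002 and 970 counts in siNT and 1984 and 1554 in si3m, equal to 248 ± 2.10 and 237 ± 4.77 CPM (SD, n = 2 each), with a log2 value of -0.07 and a 95% interval from -0.19 to 0.06. Prdx2, abundant in red cells and also cytosolic, had 374 and 453 counts against 1008 and 802, a log2 value of 0.22 that did not pass (edgeR adjusted p = 0.125). It did pass without siNT replicate 2 (log2 0.38, adjusted p = 0.00579). Prdx5, found in mitochondria and peroxisomes, had 790 and 736 counts against 1774 and 1382 (log2 0.14), and in GRCr8 it overlaps Trmt112, which has a row of its own. Prdx6, which reduces phospholipid peroxides with help from glutathione, had 232 and 216 counts against 481 and 426 (log2 0.12), and its groups overlapped. It overlaps the lncRNA gene LOC102552207, whose row fell (log2 -1.11, edgeR adjusted p = 0.0123). The ratio of Prdx4 to Prdx3 counts was 0.579 and 0.656 in siNT and 1.18 and 1.14 in si3m, and that of Prdx1 to Prdx2 was 3.11 and 2.55 against 4.79 and 4.78. None of the group fell by edgeR, by DESeq2 or at an unadjusted p under 0.05 (0 in each).

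Srxn1, sulfiredoxin, which repairs overoxidised peroxiredoxins and is itself a known NRF2 target, lay just outside the threshold. Its counts were 172 and 190 in siNT and 506 and 378 in si3m, separate groups at 45.5 ± 3.86 and 59.0 ± 0.789 CPM (SD, n = 2 per group; log2 fold change 0.37, SE 0.14, edgeR adjusted p = 0.0567). It passed as higher in 6 of 15 alternatives, for example with upper quartile scaling (adjusted p = 0.0468) and without siNT replicate 2 (0.0293), and not in DESeq2 (0.162).

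**Figure D2:**
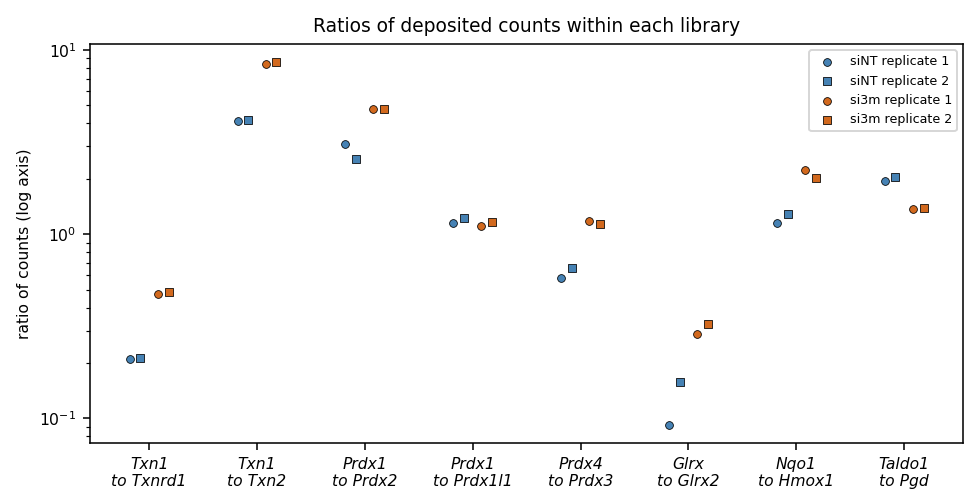
Ratios of deposited counts within each library (log axis), so that no scaling between libraries enters; siNT is blue, si3m orange, circles are replicate 1 and squares replicate 2. Txn1 to Txnrd1 moved from about 0.21 to between 0.472 and 0.489, while Prdx1 to Prdx1l1 overlapped between groups.

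Glutathione peroxidases showed rises in the 2 best known selenoenzymes. Gpx4, which reduces lipid peroxides in membranes and thereby restrains ferroptosis, had 164 and 172 counts in siNT and 540 and 408 in si3m. It rose 1.5-fold, from 42.3 ± 2.03 to 63.4 ± 0.339 CPM (SD, n = 2 per group; log2 fold change 0.58, SE 0.14, edgeR adjusted p = 0.00462). Gpx1, the cytosolic and mitochondrial enzyme for hydrogen peroxide, had 268 and 240 counts against 690 and 550, a 1.30-fold rise (log2 0.38, SE 0.12, edgeR adjusted p = 0.0226). The Gpx1 call was lost without siNT replicate 2 (adjusted p = 0.0795), without si3m replicate 1 (0.0764), without si3m replicate 2 (0.148), with total count scaling (0.0660) and in DESeq2 (0.0776). Gpx3, the secreted plasma form, had 34 and 32 counts in siNT and 42 and 20 in the deeper si3m libraries and did not pass (log2 -1.03, 95% interval -1.90 to -0.15, edgeR adjusted p = 0.0779). Gpx7 and Gpx8, which work in the endoplasmic reticulum and use protein disulfide isomerase rather than glutathione, did not pass, at log2 values of 0.57 for Gpx7 and 0.17 for Gpx8. RefSeq names 4 pseudogenes of Gpx4, none with a row. In all it names 44 copies of 15 members, 7 of them with a row. Txn1, Glrx, Gstp1 and Taldo1 are also among these members, so reads with several matches may affect their counts too.

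Among the glutathione S-transferases, which couple glutathione to electrophiles, Gsto1 rose and Gstp1 fell. Gsto1, the omega-class enzyme, had 168 and 164 counts in siNT and 608 and 466 in si3m. Its replicates nearly coincided, at 41.7 ± 0.107 and 71.8 ± 0.343 CPM (SD, n = 2 per group; 1.72-fold, log2 0.78, SE 0.13, edgeR adjusted p = 3.32e-04). Gstp1, the pi-class enzyme that is abundant in many cultured cells, had 655 and 620 counts against 1070 and 805, a fall from 160 ± 3.90 to 125 ± 1.05 CPM (SD, n = 2 per group; 1.28-fold, log2 -0.36, SE 0.077, edgeR adjusted p = 0.00256). The membrane-bound Mgst1, Mgst3 and the cytosolic Gstm1 were at log2 values of 0.26, 0.42 and 0.55, with none past the threshold. Mgst3 passed without siNT replicate 1 (log2 0.57, adjusted p = 0.0460). Gsta4, which conjugates aldehydes from lipid peroxidation, had only 4 counts in each siNT library and 34 and 16 in si3m (log2 1.68, 95% interval 0.19 to 3.17, edgeR adjusted p = 0.0883). It was the largest log2 value among tested members, on the fewest counts.

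Catalase fell, and the dismutases that passed the count filter did not pass the test. Cat, the peroxisomal enzyme that splits hydrogen peroxide, had 630 and 616 counts in siNT and 974 and 793 in si3m, a fall from 157 ± 0.221 to 119 ± 5.63 CPM (SD, n = 2 per group; 1.32-fold, log2 -0.40, SE 0.080, edgeR adjusted p = 0.00134). Sod1, the cytosolic copper-zinc enzyme, had 534 and 624 counts against 1180 and 882, with overlapping levels and a log2 value of -0.08 that became 0.051 without siNT replicate 2. Sod2, the manganese enzyme of mitochondria, had 362 and 388 counts against 732 and 482. Its si3m levels were below both siNT levels without passing (log2 -0.23, 95% interval -0.46 to 0.01). Sod3, the extracellular form, was the member not tested: it had 0 and 6 counts in siNT and 10 and 16 in si3m. A count of 0 in siNT replicate 1 allows up to 6 counts (3 fragments, since most counts were even), or 1.53 CPM of the library total, for counting error only.

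NRF2 and KEAP1 did not pass the test. Nfe2l2 had 862 and 744 counts in siNT and 1602 and 1236 in si3m, or 202 ± 18.1 and 190 ± 1.80 CPM (SD, n = 2 each), with overlapping groups and a log2 value of -0.09 (95% interval -0.24 to 0.07, edgeR adjusted p = 0.40). It was 0.0066 without siNT replicate 1. Keap1 had 14 and 38 counts in siNT and 66 and 42 in si3m, so few that its log2 value of 0.13 had a 95% interval from -0.80 to 1.05. No member of this pair was called by edgeR, by DESeq2 or at an unadjusted p under 0.05 (0 in each).

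Of the enzymes most used to read out NRF2 activity, Hmox1 fell and Nqo1 did not pass the test. Hmox1, heme oxygenase 1, which opens the heme ring and releases iron and carbon monoxide, had 796 and 758 counts in siNT and only 984 and 808 in the deeper si3m libraries. It fell 1.62-fold, from 195 ± 3.93 to 120 ± 6.44 CPM (SD, n = 2 per group; log2 fold change -0.70, SE 0.076, edgeR adjusted p = 4.47e-06), the largest fall among the members that passed. Nqo1, which reduces quinones, had 921 and 976 counts against 2185 and 1630, or 239 ± 13.2 and 255 ± 3.66 CPM (SD, n = 2 each), with a log2 value of 0.09 and a 95% interval from -0.03 to 0.22. Counts of Nqo1 were 1.16 and 1.29 times those of Hmox1 in siNT and 2.22 and 2.02 times in si3m, with no overlap.

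Glutathione synthesis and recycling gave no member past the threshold in edgeR or DESeq2 (0 of 4 in each), and 1, Gclc, lower at an unadjusted p under 0.05. Gclc, the catalytic subunit of the rate-limiting ligase, had 616 and 684 counts in siNT and 1234 and 866 in si3m, separate groups with a log2 value of -0.23 (SE 0.083, edgeR adjusted p = 0.0555). It passed as lower in 8 of 15 alternatives, for example with DESeq2 size factors in edgeR (adjusted p = 0.0453), with total count scaling (0.0151) and without siNT replicate 1 (0.00706). Its partner Gclm, the modifier subunit, had 74 and 94 counts against 232 and 138 (log2 0.21, 95% interval -0.27 to 0.69). Gss, which completes glutathione, had 52 and 36 counts against 86 and 90 (log2 0.11), becoming -0.12 without siNT replicate 2 and -0.13 without si3m replicate 2. Gsr, which reduces the oxidised form, had 100 and 140 against 302 and 278 (log2 0.37, 95% interval -0.04 to 0.79), and passed without siNT replicate 2 (log2 0.65, adjusted p = 0.0115).

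The 2 glutaredoxins, which use glutathione to reduce protein disulfides, moved apart. Glrx, the cytosolic form, had 64 and 96 counts in siNT and 298 and 216 in si3m, at 20.2 ± 5.98 and 34.3 ± 1.19 CPM (SD, n = 2 per group; 1.70-fold, log2 0.77, SE 0.21, edgeR adjusted p = 0.0142). Its rise was lost without siNT replicate 1 (log2 0.49, adjusted p = 0.0833), without si3m replicate 1 (0.0986) and without si3m replicate 2 (0.0611). Glrx2, the mitochondrial and nuclear form, had 696 and 612 counts against 1034 and 660, a 1.46-fold fall from 164 ± 12.6 to 112 ± 13.9 CPM (SD, n = 2 per group; log2 fold change -0.55, SE 0.095, edgeR adjusted p = 4.19e-04). In GRCr8 Glrx2 overlaps Ro60, which has a row under its older symbol Trove2 and fell 1.31-fold (log2 -0.39, SE 0.070, edgeR adjusted p = 5.39e-04), so the counts of the 2 genes are uncertain. Counts of Glrx were 0.0920 and 0.157 times those of Glrx2 in siNT and 0.288 and 0.327 times in si3m.

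Among the enzymes that supply NADPH or feed its supply, only Taldo1 of the 4 members passed. Taldo1, transaldolase of the non-oxidative pentose phosphate branch, had 1080 and 1098 counts in siNT and 1764 and 1362 in si3m, a 1.31-fold fall from 274 ± 7.17 to 209 ± 2.09 CPM (SD, n = 2 per group; log2 fold change -0.39, SE 0.058, edgeR adjusted p = 1.22e-04). Tkt, transketolase of the same branch, had 222 and 172 counts against 494 and 332, with overlapping groups (log2 0.15, or -0.0095 without siNT replicate 2). Pgd, 6-phosphogluconate dehydrogenase of the oxidative branch, had 558 and 538 counts against 1282 and 975 (log2 0.13, 95% interval -0.03 to 0.29). Me1, the cytosolic malic enzyme, had 876 and 905 counts against 1935 and 1472, or 224 ± 8.40 and 228 ± 0.120 CPM (SD, n = 2 each). Its log2 value of 0.02 had a 95% interval from -0.11 to 0.15, and became -0.056 with total count scaling and -0.013 without siNT replicate 1. Taldo1 counts were 1.94 and 2.04 times those of Pgd in siNT and 1.38 and 1.40 times in si3m.

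**Figure D3:**
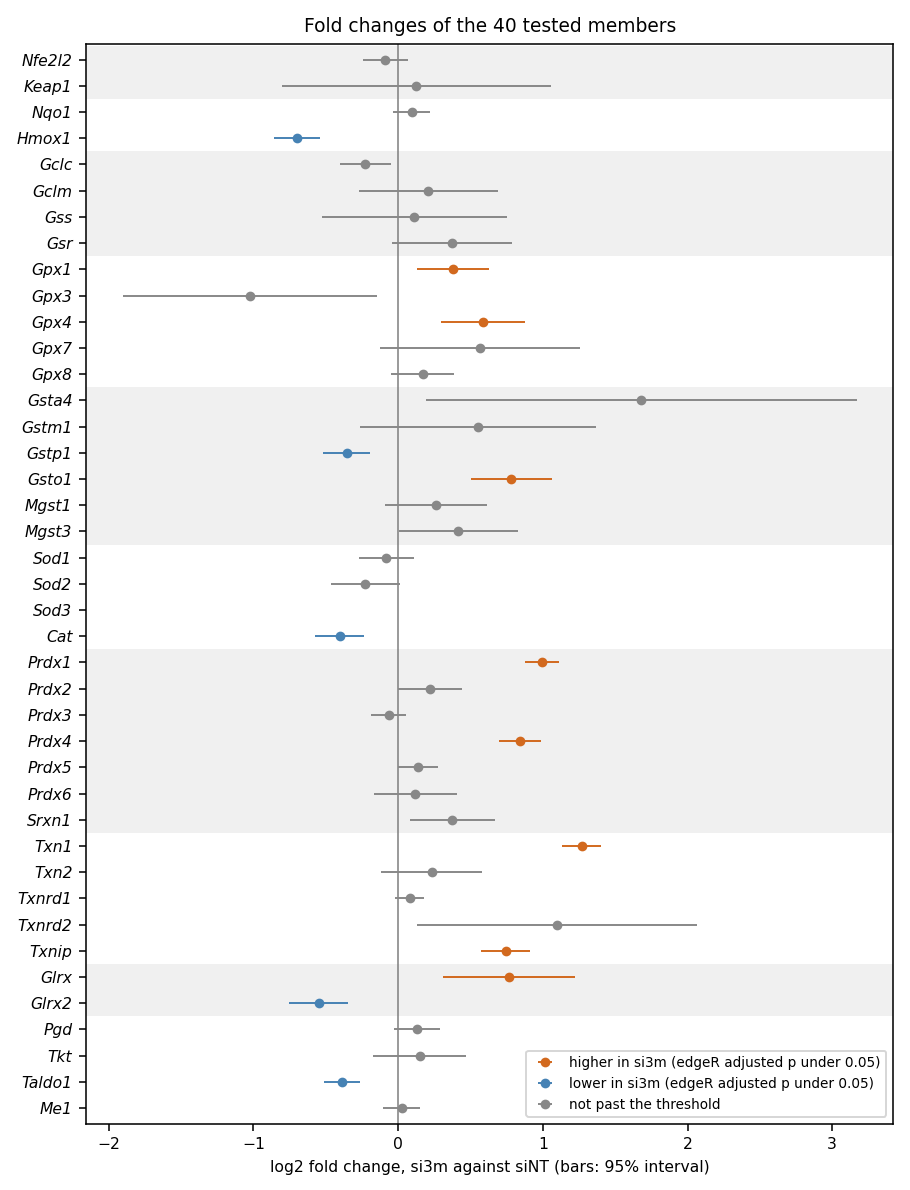
Log2 fold change of the 40 tested members, si3m against siNT, with 95% intervals as bars; orange marks the 8 that were higher, blue the 5 that were lower and grey the 27 that did not pass. Intervals are narrow for Txnrd1, Prdx3 and Me1, close to 0, and wide for Gsta4, Txnrd2 and Keap1, which had few counts.

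By place in the cell, mitochondrial members held 1 fall, Glrx2, and no rise among 6 in edgeR or DESeq2, with 2 higher at an unadjusted p under 0.05. Their median log2 value was 0.04. The 30 members kept under neither heading (mostly cytosolic) had 7 rises (23.3%) and 4 falls (13.3%) and a median of 0.18. Over all tested genes 14.0% were higher and 13.9% lower. The shares of falls here and among mitochondrial members (16.7%) lay near that of all genes. With only 6 mitochondrial members, the absence of a rise cannot be told apart from the 14.0% over all genes. Of 4 tested members that are secreted or in the endoplasmic reticulum, Prdx4 rose and none fell in edgeR or DESeq2, with 1 lower at an unadjusted p under 0.05. The difference between these places was not tested. Of the 5 selenoproteins (Gpx1, Gpx3, Gpx4, Txnrd1 and Txnrd2), which insert selenocysteine at a stop codon, 2 were higher, as described above.

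Further genes of the same pathways, in 7 lists of 100 genes of which 86 were tested, gave 16 higher (18.6%) and 18 lower (20.9%), at a median log2 of 0.07, where 14.0% and 13.9% of all tested genes were so. The counts of each list below stand against the same shares over all genes, and several lie near them, such as the rises among other NRF2 targets (15.4%) and among NADPH suppliers (14.3%). Partners and regulators of NRF2 gave falls and no rise: 7 of 10 tested were lower and none higher, and the same 0 stood in DESeq2 and at an unadjusted p under 0.05. The median log2 of this list was -0.35. Cul3, the scaffold of the ligase to which KEAP1 brings NRF2, had 3242 and 2930 counts in siNT and 4346 and 3142 in si3m and fell 1.55-fold (log2 -0.64, SE 0.054, edgeR adjusted p = 2.75e-07). Sqstm1, the autophagy receptor that can sequester KEAP1, had 2454 and 2594 counts against 3500 and 2572 and fell 1.57-fold (log2 -0.65, SE 0.055, edgeR adjusted p = 3.04e-07). Mafk, a small MAF partner, had 184 and 244 counts against 216 and 194 and fell 1.95-fold (log2 -0.96, SE 0.18, edgeR adjusted p = 8.22e-04). Maff, Mafg, Nfe2l1 and Gsk3b were the other falls. Over the alternatives the count of falls in this list ranged from 5 (DESeq2, thinned counts, without siNT replicate 2, without si3m replicate 2) to 7.

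Other NRF2 targets gave 2 rises and 3 falls among 13 tested. Fth1, the iron-storing ferritin heavy chain, had 3965 and 4036 counts against 5396 and 4364 (log2 -0.62, SE 0.047, edgeR adjusted p = 9.04e-08), and Ugdh, which makes UDP-glucuronic acid, had 870 and 888 against 1342 and 1040 (log2 -0.47, SE 0.066). Ephx1, the microsomal epoxide hydrolase, rose from 80 and 112 counts to 408 and 320 (2.02-fold, log2 1.01, SE 0.19). Without si3m replicate 2 this list had 1 rise. Further glutathione enzymes gave 3 rises and 2 falls of 16, among them Gstcd (log2 1.15), Gstm2 (log2 0.60) and Glo1, which detoxifies methylglyoxal (log2 -0.24). The Gstm2 call was lost without si3m replicate 1 (adjusted p = 0.133) and the Glo1 call without siNT replicate 2 (0.0756) and without si3m replicate 1 (0.0504). Falls in this list numbered 4 without siNT replicate 1, 0 without siNT replicate 2 or si3m replicate 1, and 1 without si3m replicate 2, and rises 1 without si3m replicate 1.

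Relatives of thioredoxin and methionine sulfoxide reductases gave 4 rises and 2 falls of 16. Arrdc3, of the same arrestin family as Txnip, rose from 348 and 360 counts to 1440 and 1056 (1.87-fold, log2 0.90, SE 0.084, edgeR adjusted p = 8.53e-07). Txndc17, a thioredoxin-like protein of the cytosol, rose from 366 and 324 to 1260 and 1008 (1.75-fold, log2 0.81, SE 0.090), and Txndc12, of the endoplasmic reticulum, rose 1.56-fold (log2 0.64, SE 0.16). The 2 falls became 1 when siNT replicate 1 or either si3m library was left out, and 0 in DESeq2, with upper quartile scaling and with thinned counts.

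Among 14 tested suppliers of NADPH beyond the members, 2 were higher and 4 lower. Idh1, the cytosolic NADP-dependent isocitrate dehydrogenase, had 534 and 458 counts in siNT and 690 and 510 in the deeper si3m libraries and fell 1.56-fold after scaling (log2 -0.64, SE 0.099, edgeR adjusted p = 1.74e-04). Rpia, which isomerises ribose phosphate, rose from 324 and 340 counts to 1346 and 974 (1.85-fold, log2 0.89, SE 0.089, edgeR adjusted p = 1.86e-06). Of the pentose phosphate enzymes named here, Taldo1 thus fell, Rpia rose, and Pgd and Tkt did not pass.

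Selenoproteins outside the members gave 4 rises among 9 tested and no fall in edgeR or DESeq2, with 1 lower at an unadjusted p under 0.05. Selenoh, a nuclear selenoprotein whose row carries the older symbol RGD1563348, rose from 28 and 34 counts to 207 and 144 (2.99-fold, log2 1.58, SE 0.26, edgeR adjusted p = 2.65e-04). Selenon, of the endoplasmic reticulum (row Sepn1), rose 1.91-fold (log2 0.93, SE 0.16), and Selenop, the secreted selenium carrier (row Sepp1), 1.52-fold (log2 0.60, SE 0.14). One fall appeared without siNT replicate 2, without si3m replicate 2 and with total count scaling (1 in each). Of 8 tested genes that make selenocysteine and insert it, Sephs2, which activates selenium and is itself a selenoprotein, rose 1.5-fold (log2 0.58, SE 0.13, edgeR adjusted p = 0.00356), a call lost without si3m replicate 1 (adjusted p = 0.0818). The others did not pass, and none fell in edgeR, in DESeq2 or at an unadjusted p under 0.05 (0 in each), with 2 rises in the list without siNT replicate 1 or siNT replicate 2 and 1 fall without siNT replicate 1.

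**Figure D4:**
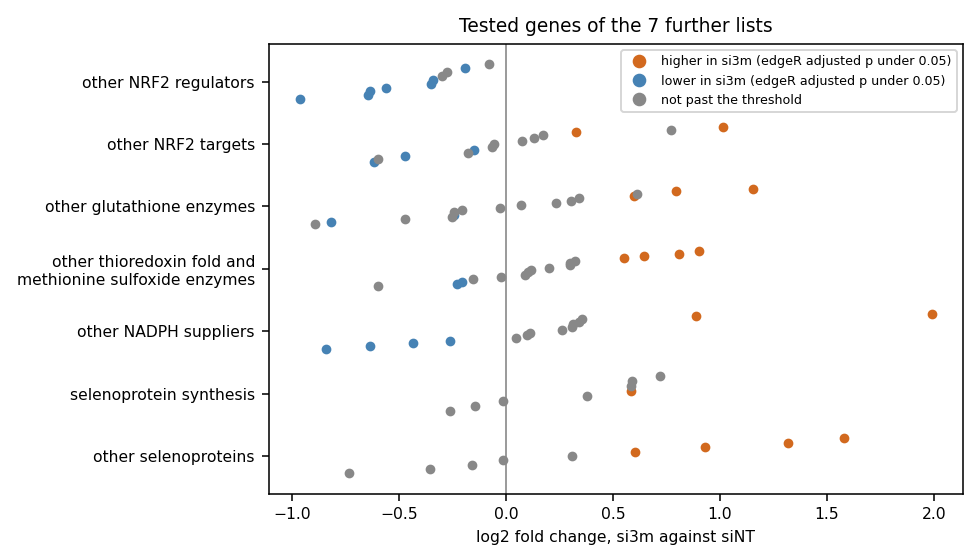
Log2 fold change, si3m against siNT, of the 86 tested genes in the 7 further lists, 1 point per gene; orange points were higher and blue lower at an edgeR adjusted p under 0.05, grey points did not pass. All 10 tested NRF2 regulators lie left of 0, while other selenoproteins have 4 orange points to the right and none blue.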

How the data were processed

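Whole-number read counts per gene symbol were deposited by the authors for each library, without normalization. Per the submitters' processing notes, featureCounts, HISAT2 2.2.1, Trimmomatic 0.40, DESeq2 and limma were used with build rn6. The sources used here do not state their roles, the annotation, the strand setting or the treatment of multiply matching reads, so reads of overlapping or near-identical genes are uncertain. Between 94.9% and 97.3% of counts above 0 were even. A spreadsheet had turned 27 symbols into dates; these rows stayed in the fit unnamed.

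All genes were fitted in edgeR 4.0.16 (R 4.3.3): filterByExpr with a minimum count of 10, TMM scaling, quasi-likelihood F-test, two-sided, Benjamini-Hochberg adjustment over 12672 genes, threshold 0.05, no replicate block. The procedure was tested on simulated counts with the same dispersion for all genes. It called 16 of 62 genes with a simulated 1.5-fold change (25.8%) and 54 of 70 with a 2-fold change (77.1%). Among 12472 unchanged genes it called 3. Changes of 1.5-fold were thus mostly missed there. The simulation left 12472 of 12672 genes unchanged, whereas 27.8% of tested genes were called in the data. It also did not imitate the mostly even counts. These shares are therefore not the sensitivity of the test in the data. Alternatives included DESeq2 1.42.0. Replicates differed by 1.40 times (siNT) and 1.48 times (si3m) pure counting noise, so none was merged. Members, lists and tests were chosen with earlier results of these data known. Named were all members and up to 3 genes per list with the smallest p among those past the threshold, of which 1 is not reported here; counts per library were given for members past it or with at least 100 mean CPM, and for further members and Maff, Mafg, Nfe2l1, Gsk3b, Ro60 and Prdx1l1, chosen after their values were seen. Of 100 list entries 98 had a row, 9 through a synonym in RefSeq's GRCr8 gene table. No coding lengths were used, so differences in counts or CPM between genes, or between sums over genes, also reflect gene length. Overlaps were examined for members only.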

Additional observations from a re-analysis of the deposited data

How the results depend on the processing

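Of the 13 members called, 11 kept their call and direction in all 15 alternatives, and Gpx1 and Glrx did not, as described above. Members called ranged from 6 to 10 higher and from 5 to 6 lower. The number of all genes called higher ranged from 1124 to 1958 over fits without 1 library, at 1124 without si3m replicate 1 and 1125 without si3m replicate 2; a lone library is assumed there to vary like the other group. Eif3m had log2 -1.59 with robust quasi-likelihood and adjusted p = 0.0522, its only lost call. The members' summed log2 ratio of 0.18 was 0.10 with total count scaling. Of 595 member values under alternatives 11 changed sign, none of a called member: Nfe2l2 (0.0066 without siNT replicate 1; range without 1 library -0.18 to 0.0066), Keap1 (-0.0058 with thinned counts; -0.43 without siNT replicate 1 and -0.014 without si3m replicate 1, range to 1.04), Gss (-0.12 without siNT replicate 2 and -0.13 without si3m replicate 2, range to 0.38), Sod1 (0.051 without siNT replicate 2, range from -0.20), Txnrd1 (-0.00025 with total count scaling), Tkt (-0.0095 without siNT replicate 2, range to 0.33) and Me1 (-0.056 with total count scaling, -0.013 without siNT replicate 1, range to 0.063). The cause of these changes was not tested. With the replicate number as a block, 8 members were higher and 6 lower, Gclc being added, and 1851 and 1843 of all genes were called. Deviations of same-numbered libraries from their group means had a correlation of -0.023 over 12672 genes. With 2 libraries per group and replicate differences near counting noise, this value cannot decide whether same-numbered libraries shared a culture or batch. Depth limits Keap1, Gclm, Glrx, Gsta4, Gstm1, Gss, Gpx3, Gpx7, Sod3 and Txnrd2 most, each with fewer than 100 counts in every siNT library.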
